A study of Mus musculus with 38 samples.

Results

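The gut carries its own nerve cells, and 29 genes that mark them, their transmitters and their glia were followed through 38 RNA sequencing libraries of mouse intestinal tract. The genes were taken from a fixed list of symbols and matched to Ensembl identifiers, 29 of the 55416 in each count table. The 16 neuron genes are the RNA-binding proteins Elavl3 and Elavl4, the vesicle proteins Snap25, Syt1 and Syp, the cytoskeletal and axonal genes Tubb3, Stmn2, Stmn3, Prph, Nefl, Nefm and Gap43, the deubiquitinase Uchl1, the GDNF receptor Ret, the transcription factor Hand2 and the adhesion molecule L1cam. The 7 transmitter genes are Chat, Nos1, Vip, Tac1, Gal, Cartpt and Calb2, the last a calcium-binding protein of some enteric neurons, and the 6 glia genes are Sox10, S100b, Gfap, Erbb3, Cdh19 and Ednrb. The enteric nervous system lies in nets of ganglia in the gut wall and descends from neural crest cells that colonise the gut before birth. Its neurons drive and relax the muscle layers, and nitric oxide and VIP are its main relaxing signals while acetylcholine and substance P are its main contracting ones. Enteric glia surround these neurons and carry SOX10 and S100B.

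The series compared mice with colorectal cancer on a black rice diet with mice on a control diet. The count tables formed 3 sets. The Apc set had 6 black rice, 6 control and 6 WT libraries, with 3 coded F and 3 coded M in each arm, and the AOM set had 6 black rice and 6 control libraries, again with 3 of each letter. The third set had 4 libraries labelled black rice and 4 labelled control by treatment, without a letter, and its count table carries the letters FMT, which the labels do not explain. The words Apc, AOM and WT come from the sample titles. The labels gave no allele, strain, age, dose or feeding time, no treatment for WT, and no meaning for F and M, and they did not say whether libraries came from separate animals, so the p-values measure the spread between these libraries, which may be technical.

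Library totals ran from 44796449 to 61888458 counts in the Apc set and from 66610853 to 91051239 in the third set. Of the AOM set 11 libraries held 37908841 to 55089368 counts, and black rice F replicate 3 held 5373366. That library drew 21.5% of its counts from 8 hepatocyte genes, against at most 0.0173% in any other library, and was left out, as the rule for the gene list states. All 10 epithelial marker genes were detected in each set, and their sum was 8514 to 17717 CPM in the 37 libraries kept. Levels are given as CPM, counts scaled to a common library total, which are not corrected for gene length, so they compare libraries for 1 gene and not genes with each other. Differences are log2 differences between groups from edgeR with their standard errors (SE), and a gene passed where its adjusted p, by the method of Benjamini and Hochberg across every gene of the fit, was under 0.05. All 29 genes were tested in every set, and their lowest count in any of the 37 libraries was 15, for Chat.

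None of the 29 genes passed in any comparison with edgeR's quasi-likelihood test. What the libraries did show was a set of genes that went up and down together from library to library. Counts of members in a comparison are therefore not independent of each other. In the Apc set WT F replicate 3 was the highest library for 12 of the 29 genes and WT F replicate 1 for 10, while WT M replicate 1 was the lowest for 8. In the AOM set black rice M replicate 2 was highest for 22 genes, and black rice M replicate 1 was lowest for 14 and control M replicate 3 for 9. In the third set black rice replicate 4 was highest for 20 genes and control replicate 4 lowest for 24. In the AOM set the highest and the lowest library carried the same diet and letter, and in the third set they stood in opposite groups. In bulk tissue fewer cells of a type and less RNA per cell cannot be told apart.

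**Figure D1:**
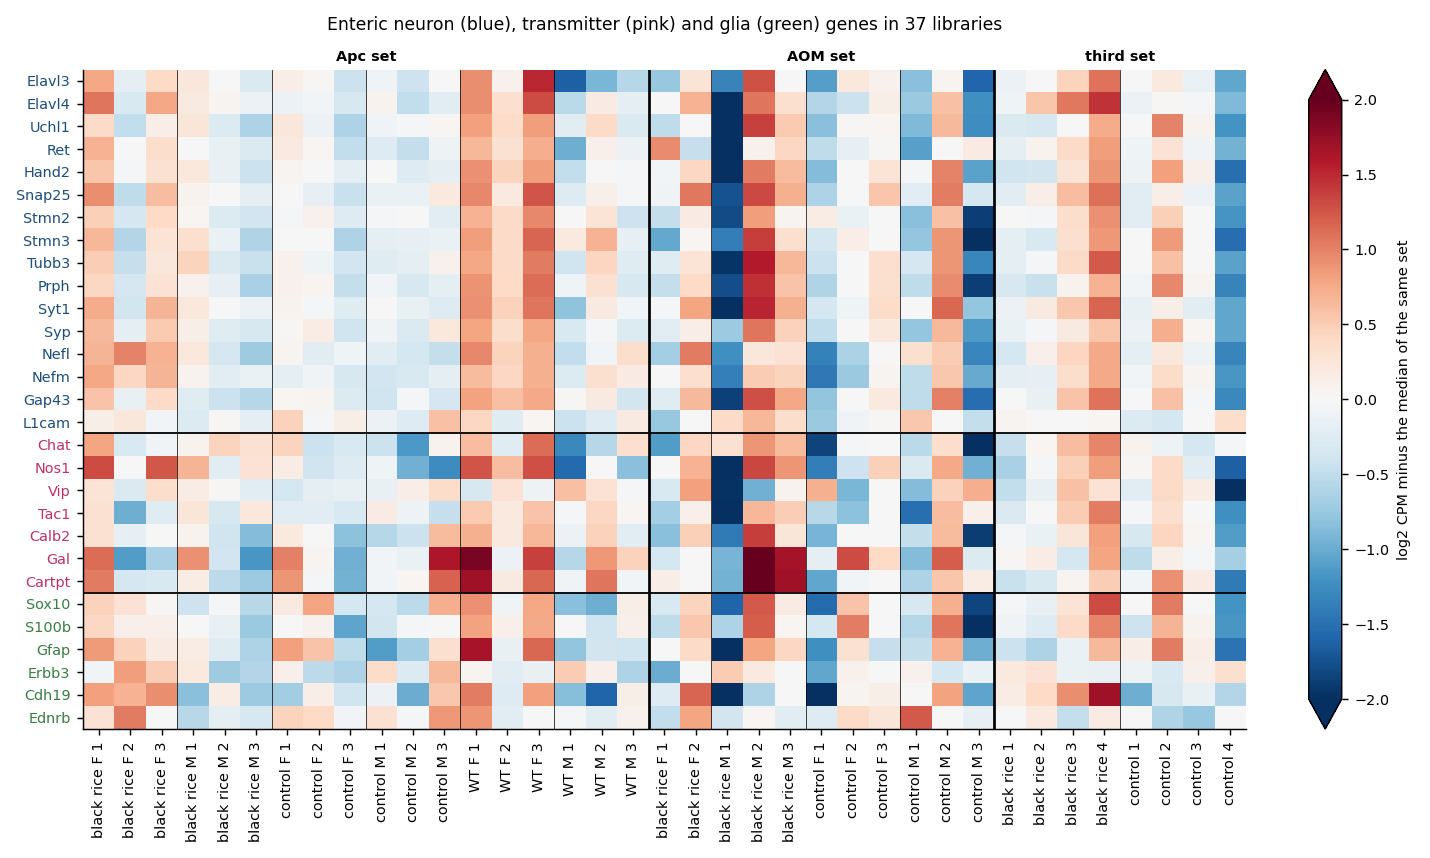
Level of each of the 29 genes (rows, ordered by role) in each of the 37 libraries kept (columns), as log2 CPM minus the median of the same set, with red above and blue below it. Whole columns are red or blue for most neuron, transmitter and glia genes, while L1cam, Erbb3 and Ednrb run apart from them.

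The shared movement can be put as a sum over 15 neuron genes, all but L1cam, a choice made after the values were seen. The sum was 134 to 248 CPM in black rice F libraries of the Apc set and 123 to 176 in black rice M libraries. It was 123 to 165 CPM in control F, 141 to 150 in control M, 206 to 322 in WT F and 131 to 187 in WT M libraries. The 3 WT F libraries lay above all 6 control libraries, and the other groups of that set overlapped with the controls. For the AOM set the sum was 183.4 and 248.5 CPM in black rice F, 53.2, 420 and 269 CPM in black rice M, 141 to 221 CPM in control F and 98.2 to 322 CPM in control M libraries. In the third set it was 218, 239, 326 and 481 CPM in black rice libraries and 231, 368, 247 and 110 CPM in control libraries. Black rice and control groups overlapped in all 3 sets.

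Each gene was divided by this sum, with the gene itself left out of the sum where it was among the 15. The division narrowed the spread over libraries in 25 of the 29 genes in each set. How many of all genes tested narrow on division by this sum was not counted. For the 16 neuron genes the median SD of log2 CPM was 0.44 in the Apc set, 0.94 in the AOM set and 0.64 in the third set, and after division it was 0.20, 0.38 and 0.20 in the same order. Part of this may follow from the choice of the 15 genes, which was made after the values were seen. No transmitter or glia gene is in it. The spread narrowed in 6 of 7 transmitter genes and 4 of 6 glia genes in each set. For the transmitter genes the median SD was 0.63, 1.02 and 0.65 in the same order of sets, and 0.52, 0.65 and 0.28 after division. For the glia genes it was 0.52, 0.92 and 0.72, and 0.55, 0.73 and 0.52 after division. The glia median thus did not fall in the Apc set. L1cam, a cell adhesion molecule of growing axons, and Erbb3 and Ednrb, the receptors for neuregulin and endothelin 3, did not narrow in any set. Erbb3 is also made by gut epithelial cells, and it stood at 120 to 458 CPM in the 37 libraries. Enteroendocrine marker genes summed to 97 to 680 CPM in these libraries, and the part of other cell types in the levels of the 29 genes was not tested. Vip did not narrow in the Apc and AOM sets, and Chat did not in the third set. Ret, which is in the sum, narrowed little in the AOM set, from an SD of 0.92 to 0.84. It made up 47.6 of the 183.4 CPM of the sum in black rice F replicate 1 of that set. L1cam shares exon sequence with Arhgap4 on the same strand in the GENCODE M21 annotation of GRCm38.

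**Figure D2:**
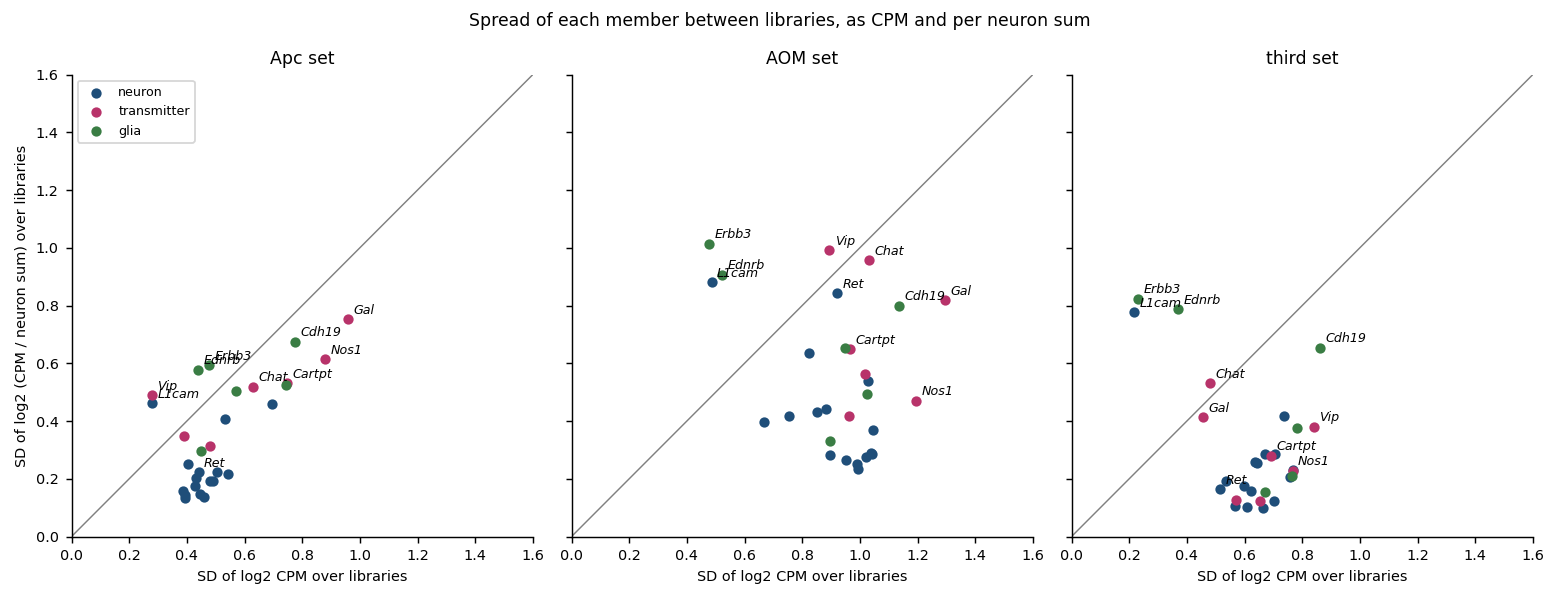
SD of log2 CPM over the libraries of a set (x axis) against the SD of log2 of CPM divided by the sum of 15 neuron genes (y axis), 1 point per gene, with the line of equal spread. The sum leaves out the gene itself where it is among the 15. Points under the line narrowed on division, as 25 of 29 did in each set, and L1cam, Erbb3 and Ednrb lie above it in all 3.

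Smooth muscle genes were measured beside them, since enteric ganglia lie in and next to the muscle layers. All 10 smooth muscle markers were detected in every set, with Myh11 the largest, and none was at 0. Their sum was 3411 to 6576 CPM in black rice, 2724 to 3977 in control and 2983 to 5936 in WT libraries of the Apc set. In the third set it was 10300, 8873, 16483 and 21329 CPM in black rice libraries 1 to 4, and 14116, 27457, 15602 and 2990 CPM in control libraries 1 to 4. Control replicate 4, the lowest library for the nerve genes, was also the lowest for muscle. In the AOM set black rice M replicate 1 had 2403 CPM of smooth muscle genes and the lowest neuron sum. Black rice M replicate 2 had 5134 CPM of muscle genes with the highest neuron sum. That was 81.8 neuron CPM per 1000 muscle CPM against 21.1 to 34.8 in the other 10 libraries. In the Apc set this ratio was 87.2 in WT F replicate 3 and 29.7 to 55.1 in the other libraries. In the third set it was 36.9 in control replicate 4 and 13.4 to 27.0 in the others.

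**Figure D3:**
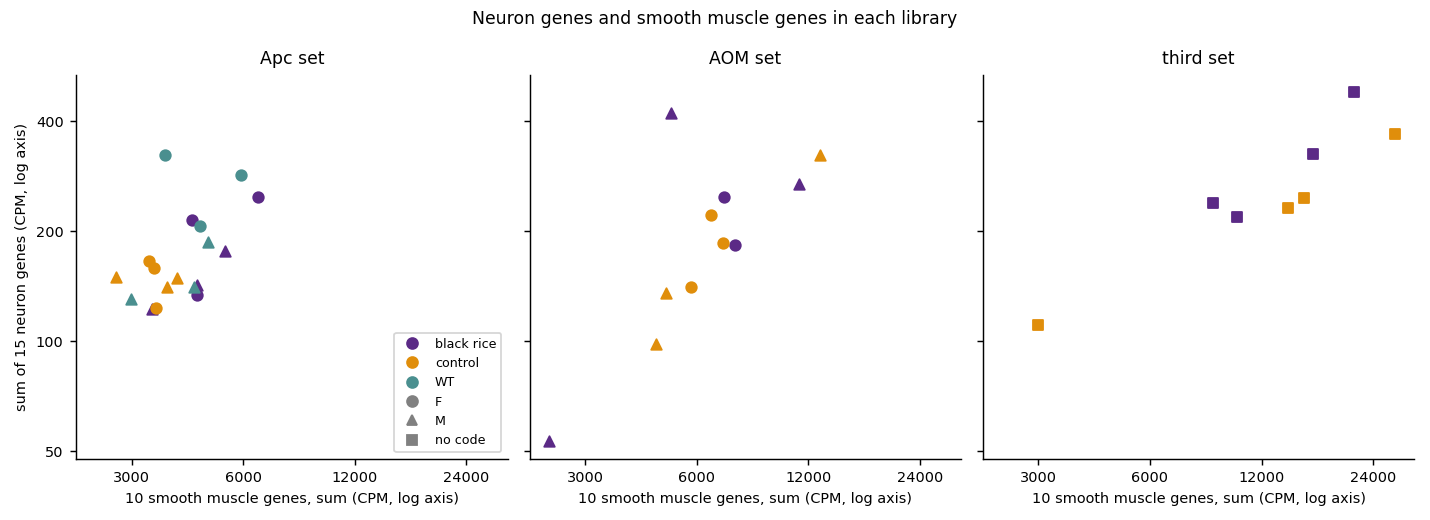
Sum of 15 neuron genes (y axis, CPM, log axis) against the sum of 10 smooth muscle genes (x axis, CPM, log axis), 1 point per library, with colour for the arm and shape for the letter. Neuron sums of 53.2 CPM and 420 CPM both belong to black rice M libraries of the AOM set, and in the third set control replicate 4 lies apart at 2990 CPM of muscle genes.

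In the Apc set, 23 of the 29 genes stood higher in black rice than in control libraries by the fitted difference, with a median of 0.17 on the log2 scale, and 0 passed (all genes: 0.0139% called, median -0.0065, 49.1% higher). By unadjusted p under 0.05 there were 4 members, 3 of them neuron genes, against 10.3% of all genes tested. DESeq2 and limma-voom also called 0 members. By role, 15 of 16 neuron genes stood higher (median 0.23), 4 of 7 transmitter genes (0.12) and 4 of 6 glia genes (0.13). The smooth muscle genes stood higher in 10 of 10 (median 0.45), the mesothelial genes in 5 of 5 (median 1.04), and with the smooth muscle level as a covariate the median of the members was -0.02. The B and plasma cell genes stood lower in 8 of 8 (median -1.32), with sums of 2035, 1000.1 and 1551 CPM in black rice F libraries and 5403 to 14272 CPM in control F libraries, without overlap, and of 4793 to 7859 CPM in black rice M and 6873 to 10899 CPM in control M libraries, with overlap. The T and NK cell genes stood lower in 7 of 7 (median -0.93). No gene of these lists passed, and the part of these cell types in the difference of the nerve genes was not tested. The median was 0.06 without black rice M replicate 1, 0.09 without black rice F replicate 1, 0.26 without black rice M replicate 3 and 0.27 without black rice F replicate 2 or control F replicate 1, and 0.10 with limma-voom. The genes lower in black rice were L1cam (-0.16), Sox10 (-0.17), Ednrb (-0.26), Gal (-0.37), Cartpt (-0.32) and Calb2 (-0.04).

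Among the neuron genes Nefm and Nefl, the medium and light neurofilament chains that fill axons, had the smallest p. Nefm was at 1.94, 2.68 and 3.86 CPM in black rice libraries and at 1.73, 1.89 and 2.16 CPM in control libraries (lowest, median and highest of 6), a log2 difference of 0.53 (SE 0.16, adjusted p = 0.324, edgeR). All 6 black rice libraries lay above the control mean of their letter, and the groups overlapped. Nefl was at 2.59, 5.87 and 8.50 CPM in black rice libraries and 3.06, 3.66 and 4.45 CPM in control libraries, with the lowest value of all in a black rice M library (log2 0.51, SE 0.19, adjusted p = 0.396, edgeR). These 2 genes lie next to each other on chromosome 14 and share exon sequence on opposite strands in the GENCODE M21 annotation of GRCm38.

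Nos1 makes nitric oxide in relaxing motor neurons and Chat makes acetylcholine. Nos1 was at 11.8, 19.3 and 33.9 CPM in black rice libraries and 5.72, 10.9 and 15.1 CPM in control libraries. Its log2 difference of 1.06 was the largest of the 29 (SE 0.32, adjusted p = 0.307, edgeR; adjusted p = 0.0617 with DESeq2), with all 6 black rice libraries above the control mean of their letter and an overlap between 11.8 and 15.1 CPM. With smooth muscle as a covariate it was 0.59. Chat was at 1.28, 1.80 and 2.72 CPM in black rice libraries and 0.711, 1.22 and 2.14 CPM in control libraries (log2 0.50, SE 0.32, adjusted p = 0.61, edgeR). The glia genes with the smallest p were Cdh19, a cadherin of glia and Schwann cells, at 4.83, 11.8 and 16.4 CPM in black rice and 4.35, 7.30 and 12.5 CPM in control libraries, and Ednrb, at 6.95, 9.51 and 20.9 CPM in black rice and 9.78, 12.98 and 18.5 CPM in control libraries. Their log2 differences were 0.41 (SE 0.29) and -0.26 (SE 0.21), with adjusted p of 0.645 and 0.694 by edgeR.

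The promoters of the transmitter genes were read for the CRE half-site CGTCA, the element through which cyclic AMP signals act on Vip. RefSeq windows of 250 bases before to 50 after a start were found for 19 of the 29 genes on build GRCm38.p6. All 6 transmitter genes matched held CGTCA on either strand, as did 2 of 10 neuron genes and 1 of 3 glia genes, and 20.8% of all 32851 windows held it. Some genes have several windows and so more chances of a match, Elavl4 among them with 4. The other motifs were CANNTG, in 4 of 6 transmitter, 6 of 10 neuron and 1 of 3 glia genes (72.3% of windows), GGACAG on either strand, in 2, 2 and 0 (22.2%), ACAATGG on either strand, in 0 of 19 (3.66%), and TATAAA on the given strand, in 1, 2 and 0 (8.32%). The Vip window is chr10:5638968-5639267, the Tac1 window chr6:7554811-7555110 and, for a neuron gene with no match, the Prph window chr15:99054924-99055223, all on the plus strand. Capitals mark the half-site, which starts at base -79 in Vip and at -197 and -43 in Tac1, counted from the start. A match is a string of letters in a window and was not tested as a site.
Vip: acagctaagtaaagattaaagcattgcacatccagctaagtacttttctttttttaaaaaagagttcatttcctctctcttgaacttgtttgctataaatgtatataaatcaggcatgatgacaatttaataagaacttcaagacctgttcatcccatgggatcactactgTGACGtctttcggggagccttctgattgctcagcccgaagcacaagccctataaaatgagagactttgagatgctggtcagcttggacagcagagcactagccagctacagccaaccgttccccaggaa
Tac1: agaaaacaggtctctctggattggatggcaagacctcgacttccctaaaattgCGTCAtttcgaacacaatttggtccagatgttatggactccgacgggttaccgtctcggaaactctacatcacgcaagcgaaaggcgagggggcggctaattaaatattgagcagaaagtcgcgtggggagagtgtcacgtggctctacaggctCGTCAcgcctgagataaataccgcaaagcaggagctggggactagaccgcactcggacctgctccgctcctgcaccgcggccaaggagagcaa
Prph: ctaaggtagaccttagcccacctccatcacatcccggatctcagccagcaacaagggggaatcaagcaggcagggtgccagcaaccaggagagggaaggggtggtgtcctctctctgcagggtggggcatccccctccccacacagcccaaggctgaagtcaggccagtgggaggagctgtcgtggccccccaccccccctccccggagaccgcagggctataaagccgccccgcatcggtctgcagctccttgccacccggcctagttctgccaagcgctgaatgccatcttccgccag

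The diet difference was also taken within each letter. In F libraries of the Apc set 26 of 29 genes stood higher with black rice than with the control diet (median 0.33, 0 passed, 0% of all genes called, 5 members at unadjusted p under 0.05). In M libraries 15 did (median 0.02, 0 passed, 0.0324% of all genes called, 2 at unadjusted p under 0.05). Of all genes tested, 10.2% in F and 8.54% in M libraries were under that p. The F minus M difference of the diet difference was positive for 26 genes with a median of 0.34. Of the members 0 passed it (0% of all genes called), and 3 were at unadjusted p under 0.05, against 8.89% of all genes. The 3 were glia genes. These were Erbb3 (1.27, SE 0.50, adjusted p = 0.505, edgeR), Cdh19 (1.39, SE 0.58, adjusted p = 0.515, edgeR) and Ednrb (0.94, SE 0.42, adjusted p = 0.539, edgeR). Cdh19 was at 15.2, 14.0 and 16.4 CPM in black rice F libraries and 5.32, 9.33 and 6.59 CPM in control F libraries, but at 4.83, 9.58 and 5.22 CPM in black rice M libraries and 8.01, 4.35 and 12.5 CPM in control M libraries. The F groups did not overlap and the M groups did. Of the 29 genes 4 did not overlap between the F groups, all higher in black rice (Cdh19, Nefl, Nefm and S100b; all genes tested: 19.3%), and 2 did not between the M groups (Chat, higher in black rice, and Ednrb, lower; all genes: 13.5%).

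Control libraries of the Apc set stood below WT libraries in 26 of the 29 genes, with a median of -0.47, and 0 passed (all genes: 0% called, median 0.0045, 50.9% higher). This comparison uses the same control libraries as the one above. At unadjusted p under 0.05 there were 14 members, all lower in control and 11 of them neuron genes, against 4.25% of all genes tested. DESeq2 and limma-voom called 0 members, with 15 and 10 at unadjusted p under 0.05. By role, 15 of 16 neuron genes (median -0.52, down to -0.79 for Stmn3), 7 of 7 transmitter genes (-0.45) and 4 of 6 glia genes (-0.13) stood lower in control libraries. L1cam, Sox10 and Ednrb were the 3 that stood higher. The 10 smooth muscle genes all stood lower in control libraries (median -0.32), and with smooth muscle as a covariate the median of the members was -0.30 with 4 at unadjusted p under 0.05. Endothelial genes stood higher in control in 5 of 5 (median 0.30), with sums of 124.5 to 158.9 CPM in control and 59.5 to 136.9 CPM in WT libraries. Among them Kdr, a receptor for VEGF named after its values were seen, did not overlap, at 21.1 to 32.7 CPM in control and 7.51 to 20.6 CPM in WT libraries (log2 0.70, SE 0.22, adjusted p = 0.999, edgeR). How many of all genes did not overlap between these groups was not counted. The T and NK cell genes stood higher in 7 of 7 (median 0.64), the B and plasma cell genes in 8 of 8 (0.28) and the mesothelial genes in 0 of 5 (-0.76), and the part of these cell types in the difference was not tested. Without WT F replicate 3 or WT M replicate 2 the number at unadjusted p under 0.05 was 7.

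Nefm had the smallest p of this comparison. It was at 1.73, 1.89 and 2.16 CPM in control libraries and 1.86, 2.90 and 3.69 CPM in WT libraries, a log2 difference of -0.64 (SE 0.16, adjusted p = 0.893, edgeR). Nefl was at 3.06, 3.66 and 4.45 CPM in control libraries and 3.02, 5.62 and 8.28 CPM in WT libraries (log2 -0.60, SE 0.19, adjusted p = 0.999, edgeR). For both neurofilament genes 6 of 6 control libraries lay below the WT mean of their letter, and the groups overlapped. Tac1, the precursor of substance P, was at 12.01, 14.3 and 18.6 CPM in control libraries and 16.1, 20.6 and 24.5 CPM in WT libraries (log2 -0.54, SE 0.21, adjusted p = 0.999, edgeR), with 5 of 6 control libraries below the WT mean of their letter. Nos1 was at 5.72, 10.9 and 15.1 CPM in control libraries and 4.67, 17.2 and 33.2 CPM in WT libraries (log2 -0.70, SE 0.32), and its range in WT held all control values. Of the glia genes S100b, a calcium-binding protein, was at 2.28, 4.63 and 5.02 CPM in control libraries and 3.57, 5.06 and 8.25 CPM in WT libraries (log2 -0.47, SE 0.22). Gfap, the intermediate filament of glia, was at 1.66, 3.51 and 6.38 CPM in control libraries and 2.08, 3.04 and 11.4 CPM in WT libraries (log2 -0.30, SE 0.33), and adjusted p was 0.999 by edgeR for Nos1, S100b and Gfap.

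The F and M libraries were then taken apart. In F libraries 28 of 29 genes stood lower in control (median -0.84, 0 passed, 0% of all genes called), with 19 at unadjusted p under 0.05 against 4.04% of all genes. In M libraries 20 of 29 stood lower (median -0.08, 0 passed, 0% of all genes called), with 0 at unadjusted p under 0.05. The F minus M difference of this contrast was negative in 29 of 29 genes, with a median of -0.76, and 0 passed it (0% of all genes called, 7 members at unadjusted p under 0.05 against 2.85% of all genes). Snap25, part of the vesicle fusion machinery, was at 20.3, 18.2 and 14.96 CPM in control F libraries and 39.8, 23.5 and 48.6 CPM in WT F libraries, and at 18.6, 18.5 and 23.4 CPM in control M libraries and 17.0, 21.8 and 19.9 CPM in WT M libraries. The F groups did not overlap and the M groups did. Of the 29 genes 18 did not overlap between the F groups, all lower in control (all genes tested: 11.2%), and 1 did not between the M groups (all genes: 5.88%). The members moved together from library to library, so these counts are not separate pieces of evidence beside the shares of all genes. Elavl3, an RNA-binding protein of neurons, had the largest F minus M difference, -1.86 (SE 0.53, adjusted p = 1, edgeR), with 2.54, 2.35 and 1.72 CPM in control F, 4.41, 2.46 and 6.6 CPM in WT F, 2.22, 1.75 and 2.34 CPM in control M and 0.749, 1.23 and 1.56 CPM in WT M libraries. For this gene control lay above WT in every pairing of M libraries and the F groups overlapped.

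Black rice was also set against WT in the Apc set. Here 24 of 29 genes were lower in black rice (median -0.15, 0 passed, 0.0139% of all genes called, all-gene median 0.00049). At unadjusted p under 0.05 there were 2, against 8.17% of all genes, and DESeq2 and limma-voom called 0. Gap43, a growth cone protein, was at 3.85, 5.002 and 8.51 CPM in black rice and 4.44, 7.58 and 10.04 CPM in WT libraries (log2 -0.45, SE 0.18, adjusted p = 0.59, edgeR). Prph, the filament protein of peripheral neurons, was at 9.57, 14.6 and 20.1 CPM in black rice and 12.1, 19.2 and 32.6 CPM in WT libraries (log2 -0.49, SE 0.20, adjusted p = 0.59, edgeR). For Gap43 6 of 6 and for Prph 5 of 6 black rice libraries lay below the WT mean of their letter, and both pairs of groups overlapped. The transmitter genes of smallest p were Tac1, at 8.41, 16.6 and 20.5 CPM in black rice and 16.1, 20.6 and 24.5 CPM in WT libraries, and Cartpt, a neuropeptide precursor, at 0.546, 0.724 and 1.85 CPM in black rice and 0.856, 1.46 and 2.91 CPM in WT libraries (log2 -0.41, SE 0.21, and -0.84, SE 0.42). The glia genes of smallest p were S100b, at 2.83, 4.89 and 6.26 CPM in black rice and 3.57, 5.06 and 8.25 CPM in WT libraries (log2 -0.30, SE 0.22), and Cdh19, at 4.83, 11.8 and 16.4 CPM in black rice and 2.84, 8.26 and 17.5 CPM in WT libraries (log2 0.19, SE 0.29). B and plasma cell genes stood lower in black rice in 8 of 8 (median -1.11), adipocyte genes higher in 5 of 5 (0.98), fibroblast genes in 7 of 7 (0.34) and endothelial genes in 5 of 5 (0.29), and their part in the difference was not tested. The groups of these 4 nerve genes overlapped, and no adjusted p of these 4 genes was below 0.623 by edgeR. The median of the 29 genes was -0.25 without black rice F replicate 1, -0.26 without black rice M replicate 1, -0.22 without WT F replicate 2, -0.08 without black rice M replicate 3 and -0.09 without WT M replicate 2. In F libraries 24 genes stood lower in black rice than in WT (median -0.48, 0 passed, 0% of all genes called) and in M libraries 16 did (median -0.11, 0 passed, 0.00925% of all genes called). The number at unadjusted p under 0.05 was 5 in F and 1 in M libraries, against 6.53% and 4.02% of all genes.

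Across the 3 arms of the Apc set, 26 of 29 genes stood higher in F than in M libraries, with a median of 0.31, and 0 passed by edgeR (0.074% of all genes called, all-gene median 0.0081, 51.3% higher). At unadjusted p under 0.05 there were 12 members, 11 of them higher in F, against 15.1% of all genes tested. Neuron genes stood higher in 16 of 16 (median 0.32), transmitter genes in 5 of 7 (0.12) and glia genes in 5 of 6 (0.38). DESeq2 called 3 members, Nefl (adjusted p = 0.02), Gfap (0.0387) and Nos1 (0.0416), and limma-voom called Nefl (0.0452), with 528 and 128 genes called in all by these tools. Without 1 library at a time the median stayed between 0.25 and 0.39 and edgeR called 0 members each time.

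Nefl was at 3.70, 6.82 and 8.50 CPM in F libraries and 2.59, 3.36 and 5.42 CPM in M libraries (lowest, median and highest of 9), a log2 difference of 0.57 (SE 0.15, adjusted p = 0.145, edgeR). All 9 F libraries lay above the mean of the M libraries of their arm. Elavl3 was at 1.72, 2.54 and 6.6 CPM in F and 0.749, 1.90 and 2.72 CPM in M libraries (log2 0.68, SE 0.22, adjusted p = 0.185, edgeR). Nos1 was at 10.4, 20.9 and 33.9 CPM in F and 4.67, 11.8 and 21.8 CPM in M libraries (log2 0.85, SE 0.26, adjusted p = 0.176, edgeR), with 8 of 9 F libraries above the M mean of their arm. Vip, which encodes the relaxing peptide, ran the other way, at 33.95, 39.04 and 55.4 CPM in F and 37.1, 47.6 and 65.8 CPM in M libraries (log2 -0.31, SE 0.13, adjusted p = 0.293, edgeR). Gfap was at 2.52, 5.35 and 11.4 CPM in F and 1.66, 2.72 and 4.50 CPM in M libraries (log2 0.90, SE 0.27, adjusted p = 0.173, edgeR), and Cdh19 at 5.32, 14.0 and 17.5 CPM in F and 2.84, 5.22 and 12.5 CPM in M libraries (log2 0.64, SE 0.24, adjusted p = 0.237, edgeR). The F and M ranges overlapped for each of these 6 genes.

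Other tissue genes moved with the letter as well. The 5 adipocyte genes all stood higher in F libraries (median 2.14; sum 32.7 to 787 CPM in F and 25.5 to 204 CPM in M), and the 10 epithelial genes all stood lower (median -0.24). Smooth muscle genes were split, 5 of 10 higher in F, with sums of 3352 to 6576 CPM in F and 2724 to 5349 CPM in M libraries. T and NK cell genes stood higher in 6 of 7 (median 0.66), mesothelial genes in 5 of 5 (0.51), B and plasma cell genes in 4 of 8 (-0.44) and endothelial genes in 0 of 5 (-0.20). The part of these cell types in the F minus M differences of the nerve genes was not tested.

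**Figure D4:**
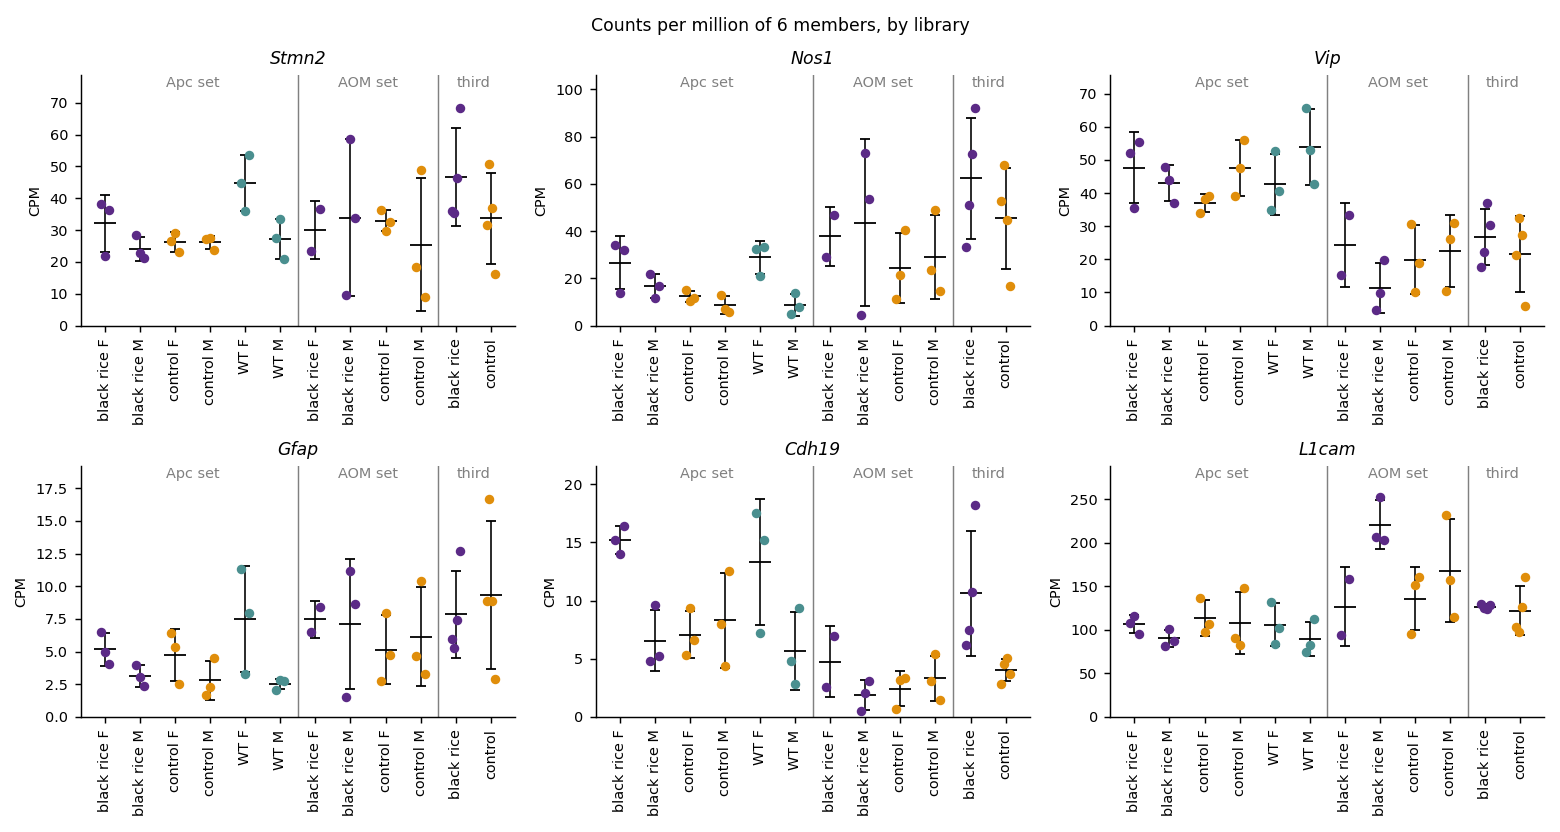
CPM of 6 of the genes in each library (points) by group, with the group mean and SD (bars; n = 3 per group in the Apc and AOM sets, 2 for AOM black rice F, 4 per group in the third set). Gfap lies at 3.27 to 11.4 CPM in WT F libraries of the Apc set and at 4.50 CPM at most in M libraries of that set. In M libraries of the AOM set it reaches 11.1 CPM. Cdh19 of the third set lies at 6.20 to 18.2 CPM in black rice and 2.85 to 5.08 CPM in control libraries, without overlap.

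In the AOM set 27 of 29 genes stood higher in black rice than in control libraries, with a median of 0.40, and 0 passed (0% of all genes called, all-gene median -0.021, 46.5% higher). None reached an unadjusted p under 0.05, against 3.06% of all genes, and DESeq2 and limma-voom called 0. Neuron genes stood higher in 16 of 16 (median 0.40), transmitter genes in 6 of 7 (0.64) and glia genes in 5 of 6 (0.13), while smooth muscle genes were split, 4 of 10 higher. B and plasma cell genes stood lower in 8 of 8 (median -1.32; sum 1425 to 3600 CPM in black rice and 1396 to 10889 CPM in control libraries), T and NK cell genes in 7 of 7 (-0.41) and adipocyte genes in 5 of 5 (-0.98), and their part in the result was not tested. The genes lower in black rice were Vip (-0.30) and Ednrb (-0.24). The median rested on single libraries, being 0.02 without black rice M replicate 2, 0.17 without black rice F replicate 2 and 0.23 without control M replicate 3, and 0.75 without control M replicate 2 and 0.64 without black rice M replicate 1. With all 12 libraries it was 0.16. With the smooth muscle level as a covariate, over 11 libraries, the median rose to 0.54.

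Nefm was at 3.68, 4.62, 1.43, 5.22 and 5.03 CPM in black rice libraries F 1, F 2, M 1, M 2 and M 3, and at 1.37, 2.39 and 5.35 CPM in control libraries (lowest, median and highest of 6). Its log2 difference was 0.54 (SE 0.43, adjusted p = 1, edgeR). Elavl4, another neuronal RNA-binding protein, was at 7.85, 12.7, 1.26, 16.5 and 9.76 CPM in black rice and 3.37, 5.55 and 11.7 CPM in control libraries (log2 0.61, SE 0.55). For both genes the lowest value of the set or near it, black rice M replicate 1, and the highest or near it, black rice M replicate 2, stood in the same group. Cartpt was at 1.31, 1.20, 0.619, 4.79 and 3.89 CPM in black rice and 0.580, 1.17 and 1.76 CPM in control libraries (log2 0.87, SE 0.46), and Chat at 0.70, 2.03, 1.88, 2.82 and 2.36 CPM in black rice and 0.322, 1.28 and 1.95 CPM in control libraries (log2 0.69, SE 0.51). The glia genes were Gfap, at 6.48, 8.43, 1.54, 11.1 and 8.61 CPM in black rice and 2.77, 4.67 and 10.4 CPM in control libraries (log2 0.41, SE 0.50), and Ednrb, at 3.57, 8.71, 3.89, 5.17 and 4.35 CPM in black rice and 4.19, 5.48 and 11.8 CPM in control libraries (log2 -0.24, SE 0.36). Adjusted p was 1 by edgeR for these 6 genes, and their groups overlapped.

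By letter, 22 genes stood higher with black rice in F libraries (median 0.21, 0 passed, 0% of all genes called). At unadjusted p under 0.05 there were 0, against 3.27% of all genes. In M libraries 25 stood higher (median 0.50, 0 passed, 0% of all genes called). There 1 gene was at unadjusted p under 0.05, against 13.8% of all genes. That gene was Gal, the galanin precursor, at 2.199, 43.8 and 13.3 CPM in black rice M and 2.31, 9.68 and 3.46 CPM in control M libraries (log2 2.09, SE 0.91, adjusted p = 0.354, edgeR). Its groups overlapped, with black rice M replicates 2 and 3 above all 3 control M libraries and replicate 1 below them. The F minus M difference of the diet difference was negative for 17 of 29 genes with a median of -0.35, and 0 passed it (0% of all genes called, 0 members at unadjusted p under 0.05 against 14% of all genes).

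In the AOM set the fitted F minus M differences had mostly the other sign. Over both diets 26 of 29 genes stood lower in F than in M libraries (median -0.37, 0 passed by edgeR, DESeq2 or limma-voom, 0.0365% of all genes called, all-gene median -0.0056). Only L1cam reached an unadjusted p under 0.05, against 8.44% of all genes. It was at 94.4, 159, 95.0, 152 and 161 CPM in F libraries and 114, 205 and 253 CPM in M libraries (log2 -0.70, SE 0.27, adjusted p = 0.583, edgeR), with 5 of 5 F libraries below the M mean of their diet and an overlap of the groups. Without black rice M replicate 2 the median of the 29 genes was 0.01, without control M replicate 2 it was -0.0014, and it was -0.22 without black rice F replicate 1 or control F replicate 1 and -0.56 without black rice F replicate 2. Stmn3, a stathmin of neurons, was at 5.48, 11.4, 8.65, 12.2 and 11.1 CPM in F and 2.40, 10.2 and 28.9 CPM in M libraries (log2 -0.54, SE 0.59).

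Gal was at 3.29, 4.20, 3.72, 10.4 and 5.54 CPM in F and 2.199, 6.57 and 43.8 CPM in M libraries (log2 -1.16, SE 0.68), and Cartpt at 1.31, 1.20, 0.580, 1.15 and 1.19 CPM in F and 0.619, 1.54 and 4.79 CPM in M libraries (log2 -0.96, SE 0.48). The M range of Gal held every F value, and for Cartpt it held all but the lowest. Erbb3 was at 124, 244, 120, 262 and 247 CPM in F and 194, 254 and 351 CPM in M libraries (log2 -0.53, SE 0.27), and Cdh19 at 2.57, 6.92, 0.712, 3.21 and 3.37 CPM in F and 0.512, 2.55 and 5.37 CPM in M libraries (log2 0.33, SE 0.56). The lowest adjusted p of these 5 genes was 0.616 by edgeR, for Cartpt. Adipocyte genes stood higher in F in 5 of 5 here too (median 3.42) and epithelial genes lower in 10 of 10 (median -0.40). B and plasma cell genes (8 of 8, median 1.28), T and NK cell genes (7 of 7, 0.67), fibroblast genes (7 of 7, 0.67), endothelial genes (5 of 5, 0.47) and mesothelial genes (5 of 5, 0.75) also stood higher in F libraries, and the part of these cell types was not tested. The Apc minus AOM difference of the F minus M effect, a contrast added after the data were seen, was positive in 27 of 29 genes (median 0.50). Of the members 0 passed it (0.0168% of all genes called) and 1 was at unadjusted p under 0.05, against 7.21% of all genes.

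In the third set 24 of 29 genes stood higher in black rice than in control libraries, with a median of 0.33, and 0 passed by edgeR (0% of all genes called, all-gene median 0.0072, 51.3% higher). At unadjusted p under 0.05 there were 3 members, all higher, against 7.94% of all genes. Neuron genes stood higher in 14 of 16 (median 0.38), transmitter genes in 6 of 7 (0.37) and glia genes in 4 of 6 (0.23). The genes lower in black rice were Uchl1 (-0.15), Prph (-0.13), Cartpt (-0.20), Gfap (-0.34) and Erbb3 (-0.0059). Smooth muscle genes were split, 4 of 10 higher, while all 5 mesothelial genes (median 0.96; 28.3 to 35.4 CPM in black rice and 10.49 to 21.7 CPM in control, summed) and all 5 adipocyte genes (median 1.36) stood higher. B and plasma cell genes also stood higher in 8 of 8 (median 0.61) and epithelial genes lower in 10 of 10 (-0.27), and the part of these cell types was not tested. With smooth muscle as a covariate 12 members were at unadjusted p under 0.05 and 0 passed. The median of the 29 was 0.15 without black rice replicate 4 or control replicate 4 and 0.61 without control replicate 2.

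Cdh19 was the 1 gene of the 29 whose groups did not overlap in the third set, where 4.69% of all genes tested did not overlap. It was at 6.20, 7.43, 10.7 and 18.2 CPM in black rice libraries and 2.85, 4.50, 5.08 and 3.73 CPM in control libraries, a log2 difference of 1.32 (SE 0.32, adjusted p = 0.499, edgeR). DESeq2 called it (adjusted p = 0.0162, 136 genes called in all), and limma-voom did not (adjusted p = 0.274). The other glia genes did not share this: Ednrb was at 10.04, 11.4, 7.16 and 11.1 CPM in black rice and 10.02, 6.52, 5.89 and 9.88 CPM in control libraries (log2 0.24, SE 0.22, adjusted p = 0.807, edgeR), and Gfap was at 5.996, 5.28, 7.40 and 12.7 CPM in black rice and 8.83, 16.7, 8.87 and 2.89 CPM in control libraries. The groups of both overlapped.

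Elavl4 was at 9.45, 14.8, 20.8 and 27.2 CPM in black rice and 9.19, 10.2, 9.81 and 5.44 CPM in control libraries, so that black rice replicate 1 alone lay within the control range (log2 0.98, SE 0.31, adjusted p = 0.545, edgeR). Syt1, the calcium sensor of transmitter release, was at 19.1, 23.3, 30.1 and 46.2 CPM in black rice and 18.6, 22.4, 17.6 and 10.01 CPM in control libraries (log2 0.71, SE 0.30, adjusted p = 0.619, edgeR), again with an overlap from replicate 1. Chat was at 1.36, 1.92, 2.88 and 3.67 CPM in black rice and 1.96, 1.75, 1.46 and 1.82 CPM in control libraries (log2 0.42, SE 0.28, adjusted p = 0.732, edgeR), and Gal at 12.2, 13.2, 9.36 and 20.7 CPM in black rice and 8.45, 12.9, 11.8 and 7.53 CPM in control libraries (log2 0.37, SE 0.25, adjusted p = 0.73, edgeR). Both overlapped.

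**Figure D5:**
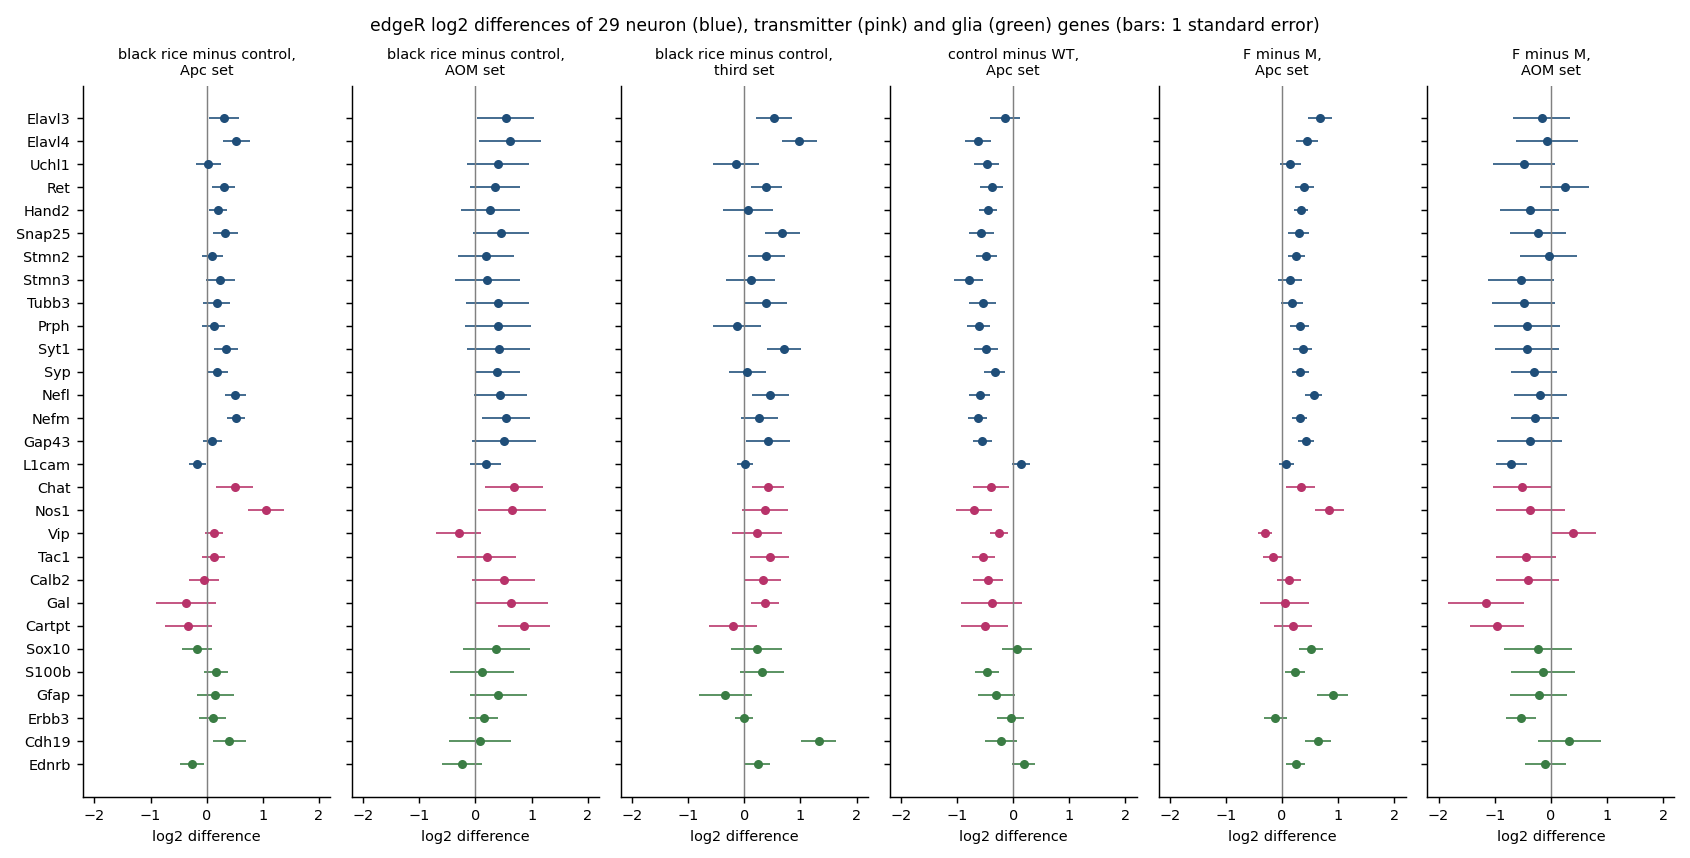
Log2 difference of each of the 29 genes (points) with 1 standard error (bars) in 6 comparisons, ordered by role. Most points lie right of 0 for black rice minus control in all 3 sets (23, 27 and 24 of 29), left of 0 for control minus WT (26 of 29), and on opposite sides for F minus M in the Apc and AOM sets, and 0 of them passed by edgeR.

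The black rice minus control differences of the sets were compared in 1 joint fit. Over the 29 genes the Apc minus AOM value had a median of -0.10, the Apc set minus the third set -0.12 and the third set minus AOM -0.13. Of the members 0 passed any of the 3 (0% of all genes called in each), with 0 members at unadjusted p under 0.05. Of all genes 7.25%, 2.95% and 5.22% were under that p, in the same order. The smallest p was that of Cartpt for Apc minus AOM (-1.21, SE 0.63, adjusted p = 0.679, edgeR).

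Of 94 other genes of the enteric nervous system, 90 or 91 were tested in each set and 0 passed in any of the 7 main comparisons. In the Apc set 62 of 91 stood higher in black rice than in control (median 0.12) and 65 of 91 lower in control than in WT (median -0.21). Among AOM libraries 62 of 91 stood higher in black rice (median 0.20), and in the third set 59 of 90 did (median 0.20). By kind, 26 of 33 further neuron genes, 14 of 19 further transmitter and receptor genes, 12 of 20 further glia genes and 10 of 19 ligands and coreceptors stood higher in black rice in the Apc set, with median log2 differences of 0.17, 0.34, 0.11 and 0.03.

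RET works with the coreceptors GFRA1 and GFRA2, which bind the ligands GDNF and neurturin. Gfra2 had the smallest adjusted p of the 94 genes over these comparisons, in F minus M of the Apc set (log2 0.54, SE 0.10, adjusted p = 0.0781, edgeR), and is named after its values were seen. It was at 5.25, 6.87 and 8.83 CPM in F libraries and 3.47, 4.53 and 5.06 CPM in M libraries (lowest, median and highest of 9), without overlap, as in 0.0925% of all genes tested and 0 of the 29 nerve genes. Gfra1 differed by 0.54 (SE 0.18, adjusted p = 0.199, edgeR), Gdnf by 0.27 (SE 0.16) and Ret itself by 0.40 (SE 0.17, adjusted p = 0.285, edgeR) in the same comparison. Ret was at 8.44, 14.6 and 19.6 CPM in F and 6.02, 10.7 and 12.7 CPM in M libraries, and these overlapped.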

How the data were processed

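Total RNA was extracted with Trizol and messenger RNA captured on oligo(dT) beads, per the labels' protocols. The authors deposited raw counts per gene, as whole numbers that had not been normalized. The headers of the AOM file and of that of the third set name featureCounts 2.0.1 with the Ensembl 104 annotation of GRCm39, and show no strand setting, so reads of genes that share exon sequence cannot be assigned to 1 of them with certainty. By GENCODE M21 on GRCm38, the annotation used here and not that of the counts, 8 of the 29 genes share exon sequence with another gene. The submitters' processing notes name fastp, HISAT2 and SAMtools, with versions not given. CPM were counts divided by the library total.

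Each table was fitted with edgeR 4.0.16 in R 4.3.3 (filterByExpr by group, TMM factors, quasi-likelihood F tests, two-sided, Benjamini-Hochberg over all genes tested). Tested genes numbered 21624 in the Apc set, 21895 in the AOM set, 20831 in the third set and 23866 in the joint fit. Contrasts over both letters are means of the F and M differences. Alternatives were DESeq2 1.42.0, limma-voom 3.58.1 with quality weights, RLE size factors, other filters, the compared groups alone, a replicate block, smooth muscle as a covariate (mean log2 of CPM plus 1) and leaving out each library. The fits were tested on simulated data. Per library values were given for the 2 genes of each role with the smallest unadjusted p in each of 7 comparisons, and for genes named beyond that because of their values (Snap25, Elavl3 and Gal by letter, Gfap, Ret and Gfra2). Members and lists were chosen with earlier results of these data known. Promoter windows came from RefSeq on GRCm38.p6. Of 42 within-group library pairs, 0 held the same values.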

Additional observations from a re-analysis of the deposited data

Results flagged for a closer look

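Replicate 3 of the AOM black rice F libraries entered no comparison and drew 21.52% of its counts from 8 hepatocyte genes, against at most 0.0173% in the other libraries. In it 13 of the 29 genes had 0 counts, which at 3 counts allows up to 0.558 CPM and covers counting error only, and 16 had some. Of 58 groups of 4 libraries, 29 genes in both groups of the third set, 0 held a library that stood apart by Dixon's criterion.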

How the results depend on the processing

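The count of members past the threshold was 0 in 153 of 156 repeats of the 7 main comparisons. The other 3 were F minus M in the Apc set with DESeq2 (3 members) and limma-voom (1), and black rice minus control in the third set with DESeq2 (1). Leaving out 1 library at a time gave 0 members in every comparison. The median log2 difference over the 29 genes then ran from 0.06 to 0.27 (black rice minus control), -0.57 to -0.33 (control minus WT), -0.26 to -0.08 (black rice minus WT) and 0.25 to 0.39 (F minus M) in the Apc set. It ran from 0.02 to 0.75 (black rice minus control) and -0.56 to 0.01 (F minus M) in the AOM set and from 0.15 to 0.61 in the third set. Of 612 such values for single genes 4 changed sign, Ednrb, Cdh19 and Stmn3 in the AOM set, and 0 of these were past the threshold. Whether replicate numbers pair the libraries was left undecided. Same-number correlations ran from -0.341 to 0.43 in the Apc set, against -0.592 to 0.359 for different numbers. In the AOM set these ranges were -0.0874 to 0.385 and -0.467 to 0.467. In the set without letters they were -0.604 to 0.449 and -0.446 to 0.566. The check cannot exclude pairing, since deviations from the mean of a few libraries constrain each other. With control F replicate 1 of the AOM set, black rice F replicates 1 and 2 gave 0.385 and -0.385. With the replicate block 0 members passed in any comparison, and the median of F minus M in the AOM set was -0.18. No member was at 0 in the 37 libraries.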
